A study of Homo sapiens with 4 samples.

Results

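The tRNAs that decode phenylalanine and tryptophan were each represented by a single reference, Phe-GAA-2-1 and Trp-CCA-4-1, and these are 2 of the 48 tRNA references in the deposited error sheets. They were taken by name, as every reference whose name begins with Phe- or Trp-. The names match the RefSeq tRNA genes TRF-GAA2-1 and TRW-CCA4-1. RefSeq (GRCh38.p14) lists 11 tRNA genes with the GAA anticodon and 7 with CCA, so the reads behind each reference may come from several genes. All 76 tRNA nucleotides of Phe-GAA-2-1 and all 75 of Trp-CCA-4-1 carry a canonical position. Trp-CCA-4-1 has no nucleotide at position 17. Together they hold 151 of the 3621 numbered nucleotides.

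Wild-type (WT) HCT116 cells, a human cell line from a colorectal carcinoma, were compared with HCT116 cells lacking TRMT1L (TRMT1L KO). There were 2 libraries of each genotype, 4 in all. No further treatment or allele is named, and the labels do not say how the knockout was made, whether it is a single clone, or whether replicate libraries stem from different cultures. The p-values thus rest on the spread between libraries that may be technical repeats. Purified tRNA was read as native RNA in a nanopore (Nano-tRNAseq). Modifications change the ionic current, and the base caller may then call another base, skip a base or add a base. These 3 kinds of error are the mismatch, the deletion and the insertion. Each is given as a percentage, their total is called the summed error, and differences are given in percentage points. An error rate does not name a modification or give its share of molecules.

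A tRNA molecule folds into an acceptor stem, a D arm, an anticodon arm, a variable region and a T arm, and each carries modifications placed by dedicated enzymes. In tRNA-Phe and tRNA-Trp the methyltransferase FTSJ1 methylates the ribose at anticodon loop positions 32 and 34, working with THADA at 32 and with WDR6 at 34. Position 37 lies beside the anticodon and stabilises codon pairing. TRMT5 methylates guanosine there, and in tRNA-Phe the TYW enzymes build this further into wybutosine, a bulky tricyclic base that guards the reading frame. TRMT1 makes dimethylguanosine at position 26 of many tRNAs, and its relative TRMT1L is known for the same modification at position 27 of tRNA-Tyr. The study was designed to find modifications that depend on TRMT1L, and tRNA-Phe and tRNA-Trp are not known as its substrates.

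Over the whole molecule the summed error averaged 32.5% and 32.6% in the WT libraries for Phe-GAA-2-1. For Trp-CCA-4-1 it averaged 33.3% and 33.04%. Counted from the highest of 48 references, these levels rank 20 for Phe-GAA-2-1 and 14 for Trp-CCA-4-1. Both lie above the median of 31.9% in the other references, which ran from 22.5% to 34.8%. The make-up of the error differed between the pair. In Phe-GAA-2-1, mismatches made up 51.1% of the summed WT error, deletions 41.4% and insertions 7.44%. In Trp-CCA-4-1 the shares were 60.9%, 31.4% and 7.73%. Over all references the shares were 57.96% for mismatches, 33.96% for deletions and 8.08% for insertions. Deletion was the most frequent kind of error at 29 of 76 positions of Phe-GAA-2-1 (38.2%) and at 12 of 75 positions of Trp-CCA-4-1 (16%). Over all references it led at 896 of 3621 positions (24.7%). The mean deletion rate of Phe-GAA-2-1, 13.5% ± 0.110 (SD, n = 2 libraries), was the highest of the 48 references, of which the next reached 13.1%.

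**Figure D1:**
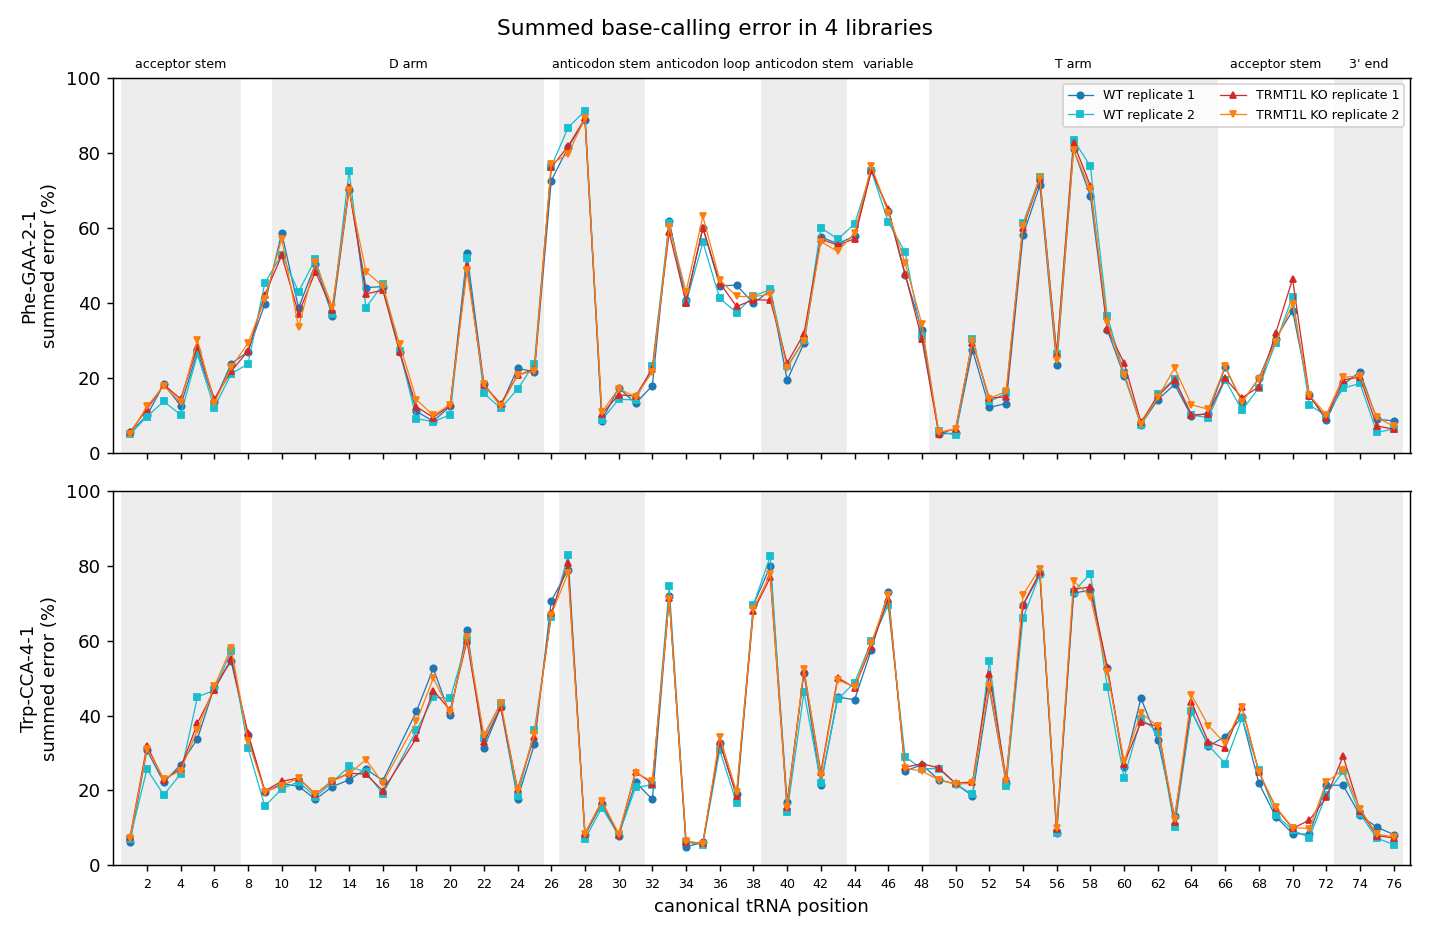
Summed error (%, vertical axis) at each canonical position of Phe-GAA-2-1 (top) and Trp-CCA-4-1 (bottom), with 1 line for each of the 4 libraries and shading that alternates between regions of the molecule. The lines of the 4 libraries run close together, and both tRNAs have a high point at position 27, at 84.1% and 80.9% in WT.

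Of the ribose-methylated positions 32 and 34 in the anticodon loop, the pair was alike in summed error at 32 and unlike at 34. At position 32 the summed error of Phe-GAA-2-1 was 17.95% and 23.1% in the WT libraries. For Trp-CCA-4-1 it was 17.6% and 21.5%. The WT libraries of the pair overlap there, and both means, 20.5% ± 3.61 and 19.6% ± 2.76 (SD, n = 2), lie near the median of 22.9% in the other references. At position 34, the first base of the anticodon, Phe-GAA-2-1 read 40.7% and 39.9%, against 4.96% and 6.17% in Trp-CCA-4-1. These libraries are far apart. The Trp-CCA-4-1 level, 5.57% ± 0.857 (SD, n = 2), was the lowest of all 48 references at position 34, where the others ran from 8.59% to 79.2%. FTSJ1 is known to methylate this ribose in both tRNAs. The error of Phe-GAA-2-1 at position 34 was mostly deletion, at 28.99%, with 9.46% mismatch and 1.88% insertion. Its deletion rate ranked 9 of 48 and its mismatch rate 37 of 48. In Trp-CCA-4-1 all 3 kinds were low at position 34, with 3.39% mismatch, 1.60% deletion and 0.576% insertion. The files hold no reference bases, and levels at a position reflect its base and neighbours as well as any modification, so a level in one tRNA is set against the others only as a description.

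At position 37, the site of wybutosine in tRNA-Phe, Phe-GAA-2-1 had a summed error of 44.7% and 37.4% in the WT libraries. The mean of 41.1% ± 5.16 (SD, n = 2) ranked 32 of 48 and lies below the median of 49.2% in the others. What set this position apart was its insertions. They reached 8.81% and 9.07% in the WT libraries, the highest of 48 references, with a median of 1.78% and a maximum of 8.62% in the others. The margin over the next reference is small. Deletions at position 37 were at 6.31%, rank 45 of 48, against a median of 20.5% in the others, and mismatches were at 25.8%. Position 37 was the insertion-rich point of the Phe-GAA-2-1 loop, since the insertion rates at positions 32 to 36 and 38 did not pass 4.31%. In Trp-CCA-4-1, where position 37 is known to carry the methylated guanosine without the wybutosine steps, the summed error was 18.9% and 16.7%. At 17.8% ± 1.61 (SD, n = 2) it was the lowest of the 48 references, of which the others began at 21.2%. Its 3 kinds were nearly even, with 5.95% mismatch, 6.60% deletion and 5.26% insertion.

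Along the rest of the loop, position 33, the uridine that turns the loop, was high in both, at 61.7% ± 0.332 in Phe-GAA-2-1 and 73.2% ± 1.83 in Trp-CCA-4-1 (SD, n = 2). In Trp-CCA-4-1 most of it was deletion, at 42.8%. Position 35, the middle base of the anticodon, read 60.0% and 56.2% in the WT libraries of Phe-GAA-2-1 but 6.18% and 5.56% in those of Trp-CCA-4-1, again the lowest of 48 references. The third anticodon position, 36, was at 42.9% and 31.7%. Trp-CCA-4-1 turned from low error at positions 34 and 35 to high error at 38, the last position of the loop. At position 38 it read 69.6% in both WT libraries, rank 2 of 48. Position 39, a pseudouridine site of PUS3 at the top of the stem, read 79.8% and 82.5%, the highest of all references, of which the others ended at 73.7%. Mismatches made up 67.8 points of the mean of 81.1%. Phe-GAA-2-1 stayed in the middle of the references at both positions, with 40.9% at 38 and 43.5% at 39. Over the 7 loop positions the mean was 43.6% ± 0.878 for Phe-GAA-2-1, rank 26, and 31.9% ± 0.274 for Trp-CCA-4-1, rank 45 (SD, n = 2).

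**Figure D2:**
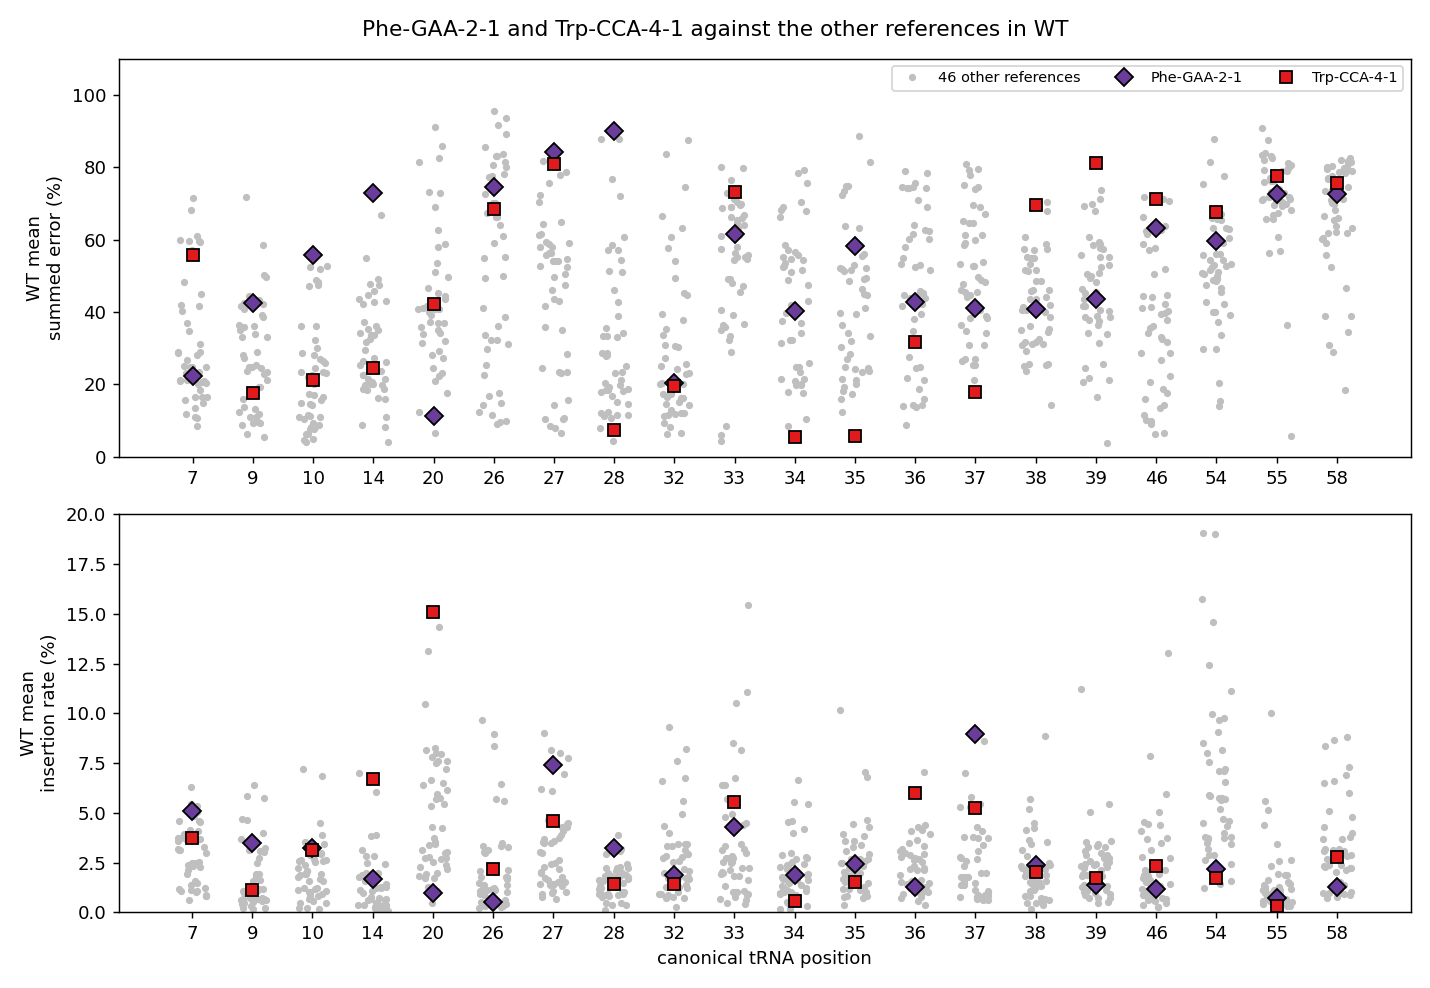
Mean WT summed error (top, %) and insertion rate (bottom, %) of Phe-GAA-2-1 and Trp-CCA-4-1 at named positions, over grey points for the 46 other references, spread sideways for legibility. Trp-CCA-4-1 lies below all grey points at positions 34, 35 and 37 and above them at 39, and the insertion rate of Phe-GAA-2-1 at position 37 (8.94%) lies just above the highest grey point (8.62%).

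Around the anticodon stem both tRNAs were high at positions 26 and 27. Position 26, the dimethylguanosine site of TRMT1, read 72.6% and 76.4% in the WT libraries of Phe-GAA-2-1. Trp-CCA-4-1 read 70.6% and 66.4%. These ranked 15 and 19 of 48. In Phe-GAA-2-1 the error at 26 was split between 36.05% mismatch and 37.97% deletion, whereas in Trp-CCA-4-1 mismatch led with 44.7% over 21.6%. Position 27, a pseudouridine site of PUS1 in many tRNAs, read 81.5% and 86.8% in Phe-GAA-2-1, the highest mean of all references. In Trp-CCA-4-1 it read 78.9% and 82.8%, rank 3. The WT libraries of the pair overlap at 27, while its mismatch rate was 41.6% in Phe-GAA-2-1 and 59.8%, the highest of 48, in Trp-CCA-4-1. One step further, at position 28, the pair parted. Phe-GAA-2-1 reached 88.9% and 91.3%, the highest position of the molecule and of any reference at 28, and 74.3 points of it were mismatch. Trp-CCA-4-1 was at 8.08% and 7.03%, rank 47 of 48. Position 28 showed the widest gap between the pair in either direction, 82.5 points.

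In the D arm, named for dihydrouridine, Phe-GAA-2-1 ran from 36.8% to 72.8% at positions 10 to 16 and was low at 18 to 20. Position 10, where TRMT11 methylates guanosine, read 58.7% and 52.9%, the highest of 48 references, of which the others ended at 52.6%. Position 14, where 1-methyladenosine is known in mammalian tRNA-Phe, read 70.3% and 75.2%. This also led all references, whose median was 26.3% and whose next value was 66.9%, and 50.6 points were mismatch. Trp-CCA-4-1 was at 24.6% ± 2.55 (SD, n = 2) at position 14, close to that median. Positions 18, 19 and 20 of the D loop were in Phe-GAA-2-1 at 10.1%, 8.42% and 11.3%, each rank 47 of 48. In Trp-CCA-4-1 the same positions were at 38.6%, 48.7% and 42.3%. Position 20, a dihydrouridine site, carried the most frequent insertions of any reference there in Trp-CCA-4-1, at 13.9% and 16.3%, while the others ended at 14.4%. The lower of these WT libraries thus lies below the top of the other references. Positions 16 and 17, further dihydrouridine sites, were at 44.6% and 27.1% in Phe-GAA-2-1, and position 16 was at 20.9% in Trp-CCA-4-1. Insertions also peaked in Phe-GAA-2-1 at position 22, with 11.1% against at most 7.57% in the others. Trp-CCA-4-1 led the references at position 23, with a summed error of 42.7% against at most 29.6%.

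The acceptor stem, which ends at the amino acid, differed at positions 6 and 7, where THUMPD3 places methylguanosine and of which 7 is known for tRNA-Trp. Trp-CCA-4-1 read 54.5% and 57.2% at position 7 in the WT libraries, and 47.7% and 46.7% at position 6. Both ranked 9 of 48. Phe-GAA-2-1 was lower at both, with 22.4% at 7 and 12.9% at 6, and the libraries of the pair do not overlap. At position 7 of Trp-CCA-4-1 deletions were at 30.5%, rank 3. Position 9 is a methylation site of TRMT10A in many tRNAs. It went the other way, with 42.6% ± 3.99 in Phe-GAA-2-1 and 17.7% ± 2.61 in Trp-CCA-4-1 (SD, n = 2). On the 3' strand of the stem, position 70 of Phe-GAA-2-1 was at 39.8%, above every other reference, which ended at 34.4%. The first nucleotide was among the lowest in both, at 5.21% and 6.74%.

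In the variable region, position 46, where METTL1 and WDR4 make 7-methylguanosine, was high in both. Phe-GAA-2-1 read 64.5% and 61.6% there, and Trp-CCA-4-1 read 73.1% and 69.4%, the second-highest mean of 48. Deletion led in Phe-GAA-2-1 with 35.7%, and mismatch led in Trp-CCA-4-1 with 54.9%, the highest of all references. Position 47 was at 50.5% in Phe-GAA-2-1 and 27.1% in Trp-CCA-4-1, the lowest of the 30 references that have it. Positions 48 and 49, sites of NSUN2 cytosine methylation in many tRNAs, differed within Phe-GAA-2-1, where 48 read 32.9% and 31.1% in the WT libraries and 49 averaged 5.43%. In Trp-CCA-4-1 they averaged 26.3% and 24.3%.

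The T arm held the classic conserved sites. Position 54, methylated by TRMT2A in many tRNAs, read 59.6% ± 2.30 in Phe-GAA-2-1 and 67.7% ± 2.44 in Trp-CCA-4-1 (SD, n = 2). At position 55, the near-universal pseudouridine, the means were 72.5% ± 1.52 and 77.7% ± 0.0552. At position 58, the 1-methyladenosine site of TRMT6 and TRMT61A, they were 72.5% ± 5.61 and 75.6% ± 3.20. These levels lie in the upper part of each molecule, and at 55 and 58 neither reference stands far from the medians of the others, 72.97% and 70.4%. The kinds differed more than the sums. Phe-GAA-2-1 led all references in deletions at position 54, with 47.3%, and at position 57, with 41.7%, and was second at 58 with 40.5%. Trp-CCA-4-1 had 35.7% deletion at 54, 15.0% at 57 and 22.3% at 58. Over the whole T arm the summed error of Trp-CCA-4-1 was 39.8% ± 0.107 (SD, n = 2), the highest of 48 references, and position 52 stood out with 50.9% against at most 34.7% in the others. Phe-GAA-2-1 was at 29.1% ± 1.35, rank 33.

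**Figure D3:**
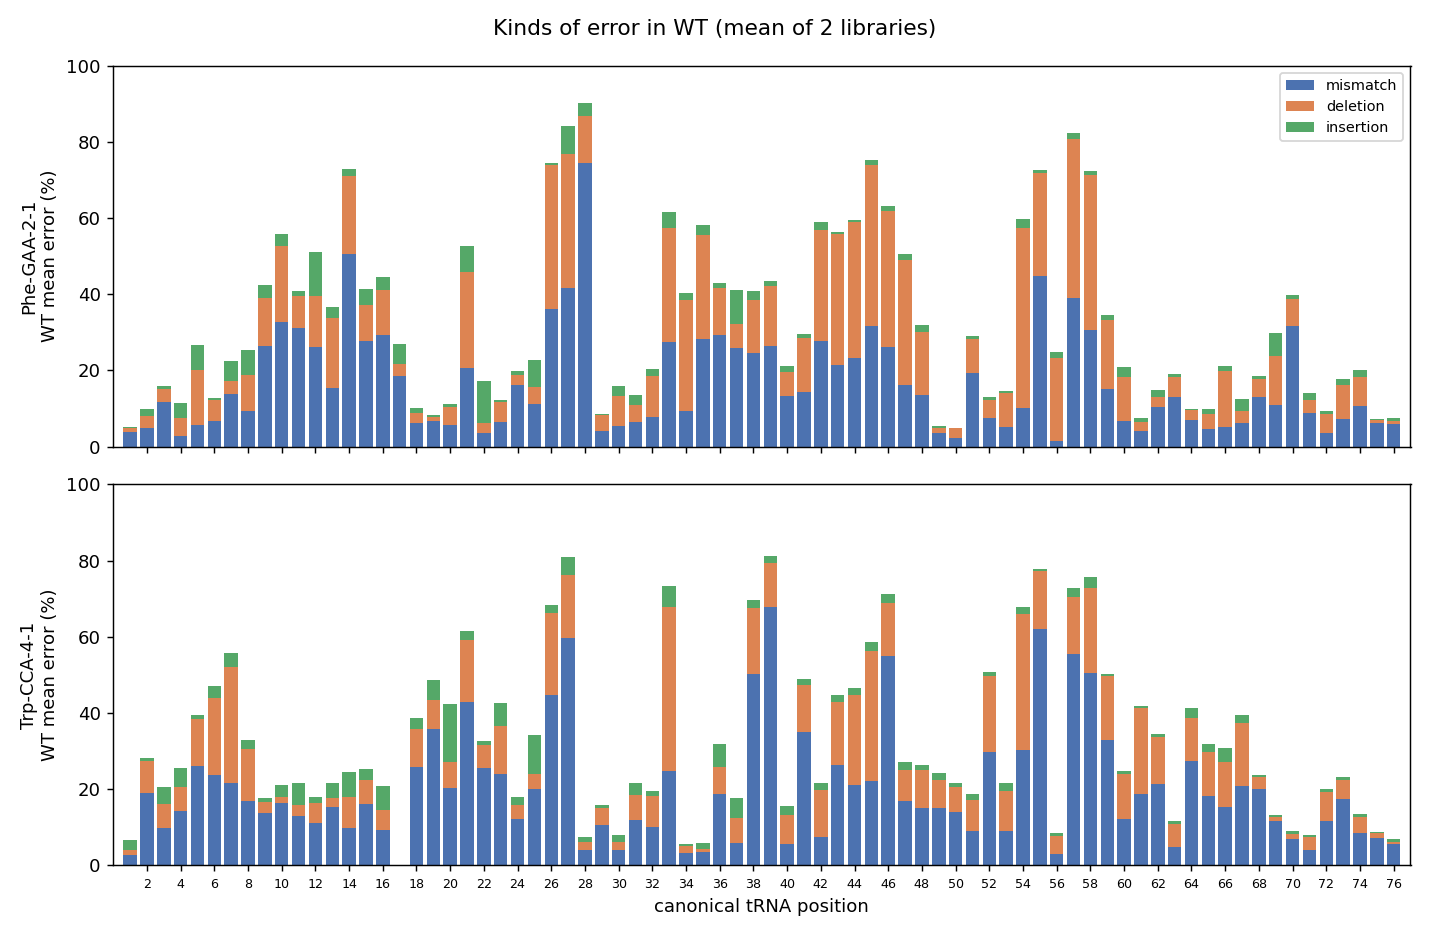
Mean WT error (%, vertical axis) at each canonical position of Phe-GAA-2-1 (top) and Trp-CCA-4-1 (bottom), stacked as mismatch, deletion and insertion. Deletions form much of the bars of Phe-GAA-2-1 from 42 to 47 and from 54 to 58. Mismatches lead at 63 of 75 positions of Trp-CCA-4-1 (84%), beside 72.8% of all positions.

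Ordered by their WT means, the highest positions of Phe-GAA-2-1 were 28, 27, 57, 45 and 26, followed by 14, 55 and 58. Position 28 lay apart from 27 in both libraries, whereas 27 and 57 overlapped, and from 45 down to 58 each position overlapped the next in the order. Its lowest were 50, 1 and 49, from 5.00% to 5.43%. In Trp-CCA-4-1 the order was 39, 27, 55, 58 and 33, with 34, 35 and 1 at the bottom. There 39 and 27 overlapped, both lay apart from 55, and from 55 to 33 each overlapped the next, as did 34 and 35. The references whose WT profile was most like that of Phe-GAA-2-1 were Ile-AAT-8-1, with a Pearson correlation of 0.768 over 76 positions, Leu-TAA-1-1 with 0.695 over 73 and Ile-GAT-1-1 with 0.655. The median over references was 0.458. For Trp-CCA-4-1 they were Met-CAT-5-2 with 0.635, Val-AAC-1-4 with 0.551 and Lys-CTT-3-1 with 0.550, and the median was 0.434. Profiles share libraries, conserved bases and the base caller, so these values are a description.

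Without TRMT1L, no position of Phe-GAA-2-1 or Trp-CCA-4-1 passed the test in any kind of error. The test was limma on the arcsine square root of the error, fitted to all 3621 positions with Benjamini-Hochberg adjustment and a threshold of 0.05. Of the summed error 0 of 76 positions in Phe-GAA-2-1 and 0 of 75 in Trp-CCA-4-1 were called, while 0.608% of all positions were. For mismatches 0.552% of all positions were called, for deletions 1.19% and for insertions 0.0829%, with 0 in either tRNA each time. Calls were thus rare over all positions, and 0 among 151 is near that background. The lowest adjusted p was 0.491 in Phe-GAA-2-1 and 0.448 in Trp-CCA-4-1 for the summed error. Over the single kinds it was 0.184 or above in the first and 0.474 or above in the second. At an unadjusted p under 0.05 the summed error gave 2 (2.63%) and 4 (5.33%) positions, against 9.36% of all positions. Mismatches gave 3 (3.95%) and 0, against 6.99%. Deletions gave 2 (2.63%) and 0, against 11.4%, and insertions 3 (3.95%) and 1 (1.33%), against 5.69%. Each of these shares lies below the background.

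Summed error, mismatch and deletion differed by small amounts and mostly upward, as they did over all references. Insertions did not lean upward in Trp-CCA-4-1, where KO was above WT at 26 of 75 positions (34.7%), beside 48.7% of all positions and 49 of 76 positions (64.5%) of Phe-GAA-2-1. The summed error over the whole molecule went from 32.5% and 32.6% to 32.8% and 33.3% in Phe-GAA-2-1. In Trp-CCA-4-1 it went from 33.3% and 33.04% to 33.9% and 34.1%. In both tRNAs the KO libraries lie above the WT libraries. Position by position, however, WT replicate 1 lay further from WT replicate 2 than from either KO library. In Phe-GAA-2-1 the mean absolute difference was 2.44 points from WT replicate 2, and 1.63 and 1.61 from the KO libraries. In Trp-CCA-4-1 it was 2.54, and 1.96 and 1.83. From WT replicate 2 the KO libraries lay 2.00 and 2.49 points away in Phe-GAA-2-1, and 2.09 and 2.46 in Trp-CCA-4-1. The median change per position was 0.687 points in Phe-GAA-2-1 and 0.979 in Trp-CCA-4-1, beside 0.818 over all positions. Both KO libraries lay above both WT libraries at 18 of 76 positions of Phe-GAA-2-1 (23.7%) and at 33 of 75 of Trp-CCA-4-1 (44%), beside 30.9% of all positions. They lay below at 6 (7.89%) and 3 (4%) positions, beside 7.93%. For mismatches the counts were 23 (30.3%) and 28 (37.3%) higher, beside 25.4%, and 6 (7.89%) and 5 (6.67%) lower, beside 10.9%. For deletions they were 17 (22.4%) and 27 (36%) higher, beside 35.5%, and 6 (7.89%) and 2 (2.67%) lower, beside 7.01%. For insertions they were 16 (21.1%) and 12 (16%) higher, beside 16%, and 8 (10.5%) and 14 (18.7%) lower, beside 17.2%. The median SD per position was larger in WT, at 1.59 and 1.77 points, than in KO, at 0.774 and 0.488.

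At the modified anticodon loop positions the intervals held 0 throughout. Position 32 of Phe-GAA-2-1 read 22.3% and 21.6% in KO, within the range of the WT libraries, a difference of 1.46 points (95% interval -2.85 to 5.77). In Trp-CCA-4-1 it read 21.8% and 22.5%, just above both WT libraries, a difference of 2.60 points (-1.33 to 6.52). Position 34 differed by 1.24 points (-3.68 to 6.16) in Phe-GAA-2-1. In Trp-CCA-4-1 the low level stayed low, at 6.36% and 6.43%, a difference of 0.825 points (-0.901 to 2.55). Position 37 differed by -0.694 points (-6.85 to 5.46) in Phe-GAA-2-1 and by 1.26 points (-2.14 to 4.67) in Trp-CCA-4-1. The insertions that marked position 37 of Phe-GAA-2-1 were at 8.22% and 7.15% in KO, below the 8.81% and 9.07% of WT without overlap. The difference of -1.26 points (-3.18 to 0.667) did not pass, with an adjusted p of 0.922 by limma. Leaving out single libraries turned the sign at position 32 of Phe-GAA-2-1 (-1.10 without WT replicate 1), at 34 (-0.238 without KO replicate 2) and at 37 (2.95 without WT replicate 1, 0.644 without KO replicate 1). In Trp-CCA-4-1 the sign held, but the difference was 0.643 at 32 and 0.219 at 34 without WT replicate 1, and 0.124 at 37 without WT replicate 2. The nucleotides with no place in the tRNA numbering, taken here as adaptor without tRNA modification, also moved between libraries. Their summed error in the Phe-GAA-2-1 reference was 24.3% and 20.98% in WT and 21.4% and 23.2% in KO. In the Trp-CCA-4-1 reference it was 29.2% and 25.5% in WT and 25.6% and 27.6% in KO. WT replicate 2 and KO replicate 1 thus lay closest there, and the part of such library differences in these values was not tested.

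At the sites of the TRMT1 family, position 26 of Phe-GAA-2-1 read 76.2% and 77.1% in KO, overlapping WT, a difference of 2.15 points (-2.00 to 6.29) that was 0.270 without WT replicate 1. Position 26 of Trp-CCA-4-1 read 67.4% and 66.8%, a difference of -1.38 points (-5.93 to 3.17) that turned to 0.728 without WT replicate 1. Its mismatches differed by -2.88 points with no overlap (adjusted p = 0.830 by limma) and its deletions by 1.91. At position 27 Phe-GAA-2-1 read 81.8% and 79.7%, a difference of -3.39 points (-7.85 to 1.06, adjusted p = 0.628 by limma). Without WT replicate 1, which is close to the KO libraries, the difference was -6.03 points and passed at an adjusted p of 0.0483. In that fit, as in each that leaves out a library, the genotype left with a single library is assumed to vary like the other. Without WT replicate 2 it was -0.755 points. Trp-CCA-4-1 read 80.8% and 78.1% at position 27, a difference of -1.41 points (-5.61 to 2.79) that became 0.510 without WT replicate 2. In the D loop, position 20 differed by 1.50 points (-1.26 to 4.26) in Phe-GAA-2-1, or 0.349 without WT replicate 2, and by -1.13 points (-6.36 to 4.09) in Trp-CCA-4-1, the latter 1.13 without WT replicate 2.

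The largest differences of the summed error lay elsewhere. In Phe-GAA-2-1, position 11 of the D stem read 38.6% and 42.99% in WT and 37.2% and 33.5% in KO, a difference of -5.50 points (-10.9 to -0.0536). The adjusted p was 0.532 by limma. Intervals are not adjusted for the number of positions, so one that leaves out 0 among the largest differences is not a call. Mismatches carried -4.92 points of it. Upward, position 15 differed by 3.95 points and position 35 by 3.49, with adjusted p of 0.726 and 0.691. Single libraries weighed on these values. At 11 the difference was -3.33 without WT replicate 2 and -3.65 without KO replicate 2. At 15 it was 0.992 without KO replicate 2 and 1.28 without WT replicate 2, and it was 6.63 without WT replicate 1 and 6.91 without KO replicate 1. At 35 it was 5.39 without WT replicate 1, 1.59 without WT replicate 2 and 1.99 without KO replicate 2. In Trp-CCA-4-1 the largest was position 43, at the foot of the anticodon stem, with 44.9% and 44.3% in WT against 50.1% and 49.5% in KO. This difference of 5.18 points (0.493 to 9.86) had an adjusted p of 0.505, and 3.39 points of it were mismatch. Leaving out a library kept it between 4.86 and 5.50 points. Position 73, beside the CCA end, differed by 4.13 points, with 2.25 without WT replicate 1 and 2.33 without KO replicate 1. Position 39, which had the highest WT mean but overlapped position 27, read 76.9% and 77.7% in KO, a difference of -3.84 points with no overlap (adjusted p = 0.524 by limma). It was -2.48 without WT replicate 2. Position 58 differed by -2.61, with -4.87 without WT replicate 1, -0.346 without WT replicate 2 and -1.32 without KO replicate 2.

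By kind, the largest deletion differences in Phe-GAA-2-1 were at positions 42 and 43 of the anticodon stem, by -3.93 and -2.35 points, with no overlap of the libraries at either. Upward they were at 35 and 28, by 2.01 and 1.46 points. In Trp-CCA-4-1 deletions differed most at 61 (-2.71) and 5 (-1.44) downward and at 41 (2.48) and 26 (1.91) upward. For mismatches the list held positions 11 (-4.92), 27 (-3.33), 15 (2.69) and 8 (2.45) in Phe-GAA-2-1. In Trp-CCA-4-1 it held 39 (-3.66), 26 (-2.88), 43 (3.39) and 54 (3.29). Insertions moved least. The largest in Phe-GAA-2-1 were at 37 (-1.26) and 21 (-1.14) and at 4 (0.859) and 3 (0.628), and in Trp-CCA-4-1 at 20 (-1.48) and 18 (-0.661) and at 23 (0.940) and 3 (0.713). None of these had an adjusted p below 0.443 with all 4 libraries. The lowest adjusted p of any kind, 0.184, belonged to insertions at position 50 of Phe-GAA-2-1, which read 0.0454% and 0% in WT and 0.446% and 0.364% in KO. With replicate numbers crossed as a block, a setting chosen after the data were seen, it passed at an adjusted p of 0.0166, the lowest over its alternatives, of which the highest was 0.999. Leave-one-out turned the sign of 5 of these differences, namely mismatch at 15 of Phe-GAA-2-1 (-0.635 without WT replicate 2, -0.0326 without KO replicate 2) and deletion at its 28 (-0.0461) and 35 (-0.199) without WT replicate 2. In Trp-CCA-4-1 they were deletion at 5 (0.516 without WT replicate 2) and insertion at 23 (-0.126 without WT replicate 1). Others nearly vanished without WT replicate 2. Mismatch at 27 of Phe-GAA-2-1 was then -0.742 and insertion at its 4 was 0.00244. In Trp-CCA-4-1 mismatch at 39 was -0.655, at 54 1.68 and at 43 2.01, deletion at 26 was 0.277 and at 41 1.43, and insertion at 20 was -0.298. Insertion at 18 of Trp-CCA-4-1 was -0.152 and deletion at its 61 was -1.53 without WT replicate 1. Without KO replicate 2 mismatch at 26 of Trp-CCA-4-1 was -1.87 and insertion at 37 of Phe-GAA-2-1 was -0.719.

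**Figure D4:**
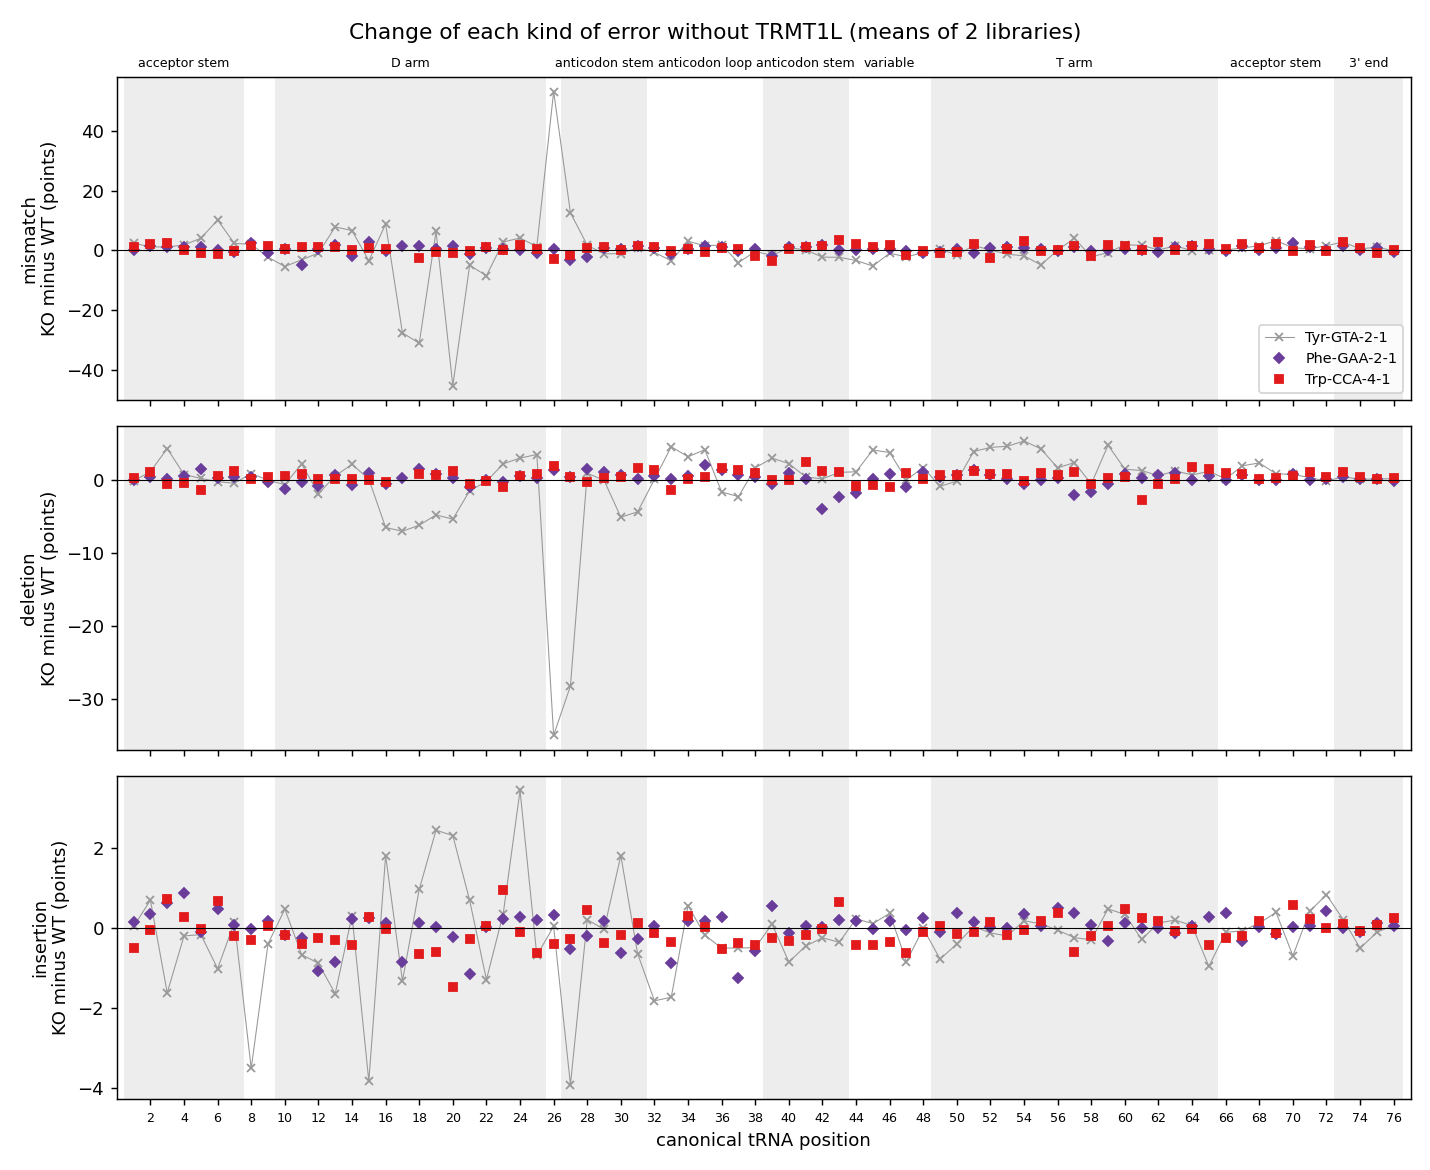
Difference in mismatch, deletion and insertion (TRMT1L KO minus WT, percentage points, means of 2 libraries each) along Phe-GAA-2-1, Trp-CCA-4-1 and, in grey, Tyr-GTA-2-1. At position 26 the mismatch difference was 53.1 points in Tyr-GTA-2-1, beside 0.407 in Phe-GAA-2-1 and -2.88 in Trp-CCA-4-1.

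The changes in the pair were set against each other within libraries. Of 75 shared positions 0 differed between Phe-GAA-2-1 and Trp-CCA-4-1 in the summed error or in any single kind (limma on within-library differences). At an unadjusted p under 0.05 there were 4 for the summed error, 2 for mismatches, 3 for deletions and 4 for insertions. These 0 calls did not hold without every library. After adjustment the summed error gave 5 positions without WT replicate 1 and 2 without WT replicate 2. Without WT replicate 1 there were also 2 for mismatches and 1 for deletions, and without WT replicate 2 there were 2 for insertions.

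Against Tyr-GTA-2-1, a reference of the named TRMT1L substrate tRNA-Tyr, the change in summed error differed at 12 of 76 positions (15.8%) in Phe-GAA-2-1 and at 15 of 75 (20%) in Trp-CCA-4-1. For mismatches it was 15 in each (19.7% and 20%), for deletions 17 in each (22.4% and 22.7%), and for insertions 11 and 8 (14.5% and 10.7%). Tyr-ATA-1-1, the other tyrosine reference, was not tested against the pair. Its own summed change was -42.8 points at position 20, but 0.523 at 26 and -4.37 at 27 (adjusted p = 0.977 and 0.585 by limma), where that of Tyr-GTA-2-1 was 18.1 and -19.6. By kind, its deletions changed by -26.5 at 26 and -20.1 at 27 and its mismatches by 26.8 and 17.9. The Tyr-GTA-2-1 positions named here were known from earlier results of these data and give no independent support. At position 20 the summed error of Tyr-GTA-2-1 fell by 48.3 points, a difference of -49.8 from Phe-GAA-2-1 (adjusted p = 8.44e-08) and of -47.2 from Trp-CCA-4-1. Both passed under every alternative run, leaving out single libraries included. The change in deletions of Tyr-GTA-2-1 minus that of Phe-GAA-2-1 was -36.4 points at 26 and -28.7 at 27. For mismatches it was 52.7 at 26 and 15.9 at 27. From Trp-CCA-4-1 the deletion differences were -36.9 and -28.6 and the mismatch differences 55.97 and 14.1. In the sum these opposed parts left 16.0 at 26 (adjusted p = 0.000865) and -16.2 at 27 (adjusted p = 0.0177) against Phe-GAA-2-1, and 19.5 and -18.2 against Trp-CCA-4-1. The counts for the summed error leaned on the number of libraries. They were 3 for Phe-GAA-2-1 without either KO library and 18 without WT replicate 1. For Trp-CCA-4-1 they were 1 without either KO library, 6 without WT replicate 1 and 5 without WT replicate 2. The single kinds moved as well, also where all 4 libraries were kept. Under the other settings of that kind, mismatches gave 9 to 14 positions against Phe-GAA-2-1 and 10 to 13 against Trp-CCA-4-1. Deletions gave 10 to 18 and 8 to 20, and insertions 9 to 11 and 0 to 6. Against Phe-GAA-2-1, leaving out a library gave 7 to 15 positions for mismatches, 9 to 18 for deletions and 6 to 10 for insertions, each lowest without KO replicate 2. Against Trp-CCA-4-1 it gave 4 to 18 for mismatches, lowest without KO replicate 2, and 8 to 21 for deletions, lowest without either KO library. Insertions there fell from 8 to 0 without either KO library, to 3 without WT replicate 1 and to 2 without WT replicate 2. The summed differences at 26 missed the threshold without either KO library (adjusted p = 0.118 and 0.0844 for Phe-GAA-2-1, 0.136 and 0.0734 for Trp-CCA-4-1). The difference at 27 from Phe-GAA-2-1 passed with all 4 libraries, though not with the replicate numbers as a block. It missed the threshold without WT replicate 1 and without either KO library. The difference at 27 from Trp-CCA-4-1 passed only with all 4. Mismatch at 27 missed the threshold without WT replicate 2 against Phe-GAA-2-1 (12.3 points, adjusted p = 0.0787) and without KO replicate 2 against Trp-CCA-4-1 (9.08 points, adjusted p = 0.228).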

How the data were processed

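Per the file headers, the deposited values are error rates as a fraction from 0 to 1, in separate sheets of mismatch, deletion and insertion for each library (12 sheets), with a further sheet of canonical positions. BWA, SAMtools and bedtools are named, per the submitters' processing notes. Not given in the sources used here are their versions, the base caller, read filters, the handling of reads that match several references, the build and the read depth, so no counting interval is given and no value was weighted. The deposited sheets carry other numbers in their second line, the nucleotide numbers, which were not read as rates.

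The 3 rates were added per library and nucleotide and tested on the arcsine square root scale with limma 3.58.1 in R 4.3.3 (lmFit, eBayes with trend and robust) over all 3621 numbered positions of 48 references, Benjamini-Hochberg adjusted at 0.05, each kind apart. Intervals of 95% come from the same fit on untransformed percentages and are not adjusted for the number of positions. Differences between references used limma on within-library differences, robust without trend, adjusted over shared positions. The script was tested on simulated data with independent noise at each position and library, so that test does not cover shifts shared within a library. Exact permutation of 2 against 2 libraries cannot go below p = 0.333. Python 3.11.15 with pandas 2.3.3 and numpy 2.4.6 served for the rest. Positions named are 32, 34, 37, known modified positions, the highest and lowest WT levels, and the largest differences by kind; others given were singled out for their rank among references after the values were seen. The members, lists and tests were chosen with earlier results of these data known. Same-numbered libraries deviated in opposite directions (correlation -0.251 for the summed error, -0.245 for mismatch, -0.130 for deletion, -0.119 for insertion), so the replicate numbers were not taken to pair them. Alternatives tried were no transformation, plain eBayes, log odds, a filter on low errors, centred libraries, unnumbered nucleotides added, tRNA ends left out, the sum without insertions, a replicate block, the same with crossed numbers (added after the data were seen) and leaving out each library.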

Additional observations from a re-analysis of the deposited data

How the results depend on the processing

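Both tRNAs had 0 called positions in every kind under each planned setting that kept all libraries, with the replicate numbers as a block included. With the numbers crossed between genotypes, a block added after the data were seen, insertions of Phe-GAA-2-1 gave 1 call, at position 50, and the other kinds 0 in both tRNAs. Leaving out each library in turn gave 0 to 1 call for the summed error of Phe-GAA-2-1, 0 to 5 for Phe-GAA-2-1 against Trp-CCA-4-1, 3 to 18 for Tyr-GTA-2-1 against Phe-GAA-2-1 and 1 to 6 against Trp-CCA-4-1. The replicate block gave 8 and 12 of the last pair, and 0.0989 as the adjusted p at position 27 against Phe-GAA-2-1. With no transformation, mismatch at 27 against Trp-CCA-4-1 had an adjusted p of 0.0872.

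Differences of single positions are given without a library in the report where that moved them most. Signs turned under other settings at a handful of small differences that passed no test. With centred libraries the difference was -0.0304 at position 34 of Phe-GAA-2-1, and -0.441 at 34 and -0.00169 at 37 of Trp-CCA-4-1. Without insertions it was 0.563 at 37 of Phe-GAA-2-1 and 0.344 at 20 of Trp-CCA-4-1. Leave-one-out ranges that crossed 0 in Phe-GAA-2-1 were -1.10 to 4.01 at 32, -0.238 to 2.71 at 34 and -4.34 to 2.95 at 37 for the sum, -0.635 to 6.02 at 15 for mismatch, and -0.0461 to 2.97 at 28 and -0.199 to 4.21 at 35 for deletion. In Trp-CCA-4-1 they were -3.40 to 1.13 at 20, -3.49 to 0.728 at 26 and -3.34 to 0.510 at 27 for the sum, -3.39 to 0.516 at 5 for deletion and -0.126 to 2.01 at 23 for insertion. The cause was not tested.

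Over all positions, calls moved more, from 22 to 74 for the summed error and from 20 to 51 for mismatches with the crossed block, from 20 to 31 for mismatches with the replicate block, from 43 to 27 for deletions without trend, from 43 to 18 for deletions with the crossed block, and from 3 to 0 and 15 for insertions with the replicate and the crossed block. Leaving out a library gave 28 to 66 for the sum, 14 to 67 for mismatches, 30 to 58 for deletions and 0 to 6 for insertions. There were 2 libraries a genotype and no stated depth, so a difference that passed no test is not shown to be absent.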
